A study of Mus musculus with 28 samples.

Results

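The 10 genes described here belong to calcium/calmodulin signalling and were followed through RNA sequencing of the dorsal hippocampus of male C57Bl6 mice. The set holds the CaMKII subunit genes Camk2a, Camk2b, Camk2d and Camk2g, the CaMKII inhibitor genes Camk2n1 and Camk2n2, the kinase kinase genes Camkk1 and Camkk2, and the genes of CaMKIV (Camk4) and CaMKIγ (Camk1g). The members were matched by gene symbol, by a rule with no threshold on measured values, and are 10 of the 50686 genes in the count table. All 10 passed the filter on low counts, which left 16735 genes for testing. The 28 libraries fall into 6 groups. Mice of the groups C108 (n = 5), C118 (n = 5), RU486 (n = 5), Cort (n = 5) and Vehicle (n = 4) underwent auditory fear conditioning, a task that pairs a tone with a shock, and mice of the group Basal (n = 4) were neither conditioned nor treated. The treatments were ligands of the glucocorticoid receptor or their vehicle. Cort is read as corticosterone, the chief glucocorticoid in mice, by its usual abbreviation. RU486 is mifepristone, which blocks that receptor. C108 and C118 are known here by their code names alone. The sources used here do not give ages, doses or times, and Vehicle against Basal joins the effect of conditioning with that of vehicle handling. Each ligand against Basal likewise joins conditioning with the treatment.

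Gene counts per library came to between 16.24 and 20.3 M (M, 10 to the power of 6). Levels below are CPM, counts per 10 to the power of 6 counts of a library after normalising library sizes. Calls are from edgeR's quasi-likelihood test at an adjusted p under 0.05 (Benjamini-Hochberg over all 16735 genes). Shares of all genes called are from that fit. Those of DESeq2, limma-voom and the other alternative fits are not given here. The labels do not say whether each library came from its own mouse. The p-values set group differences against the spread between these libraries, and would be too small if libraries shared a mouse. Markers of the labelled tissue were present throughout, with summed levels of 340.5 to 982 CPM for 8 CA1 markers and 655 to 1184 CPM for 12 dentate gyrus markers. Vehicle 16 had the lowest CA1 sum and Vehicle 29 the lowest dentate gyrus sum. In 3 other libraries, Cort 36, C108 39 and C118 38, the summed markers of endothelial cells, astrocytes and microglia were the lowest of the 28. They bear the 3 highest sample numbers and had the lowest shares of reads assigned to no gene (13.8% in Cort 36, 13.4% in C108 39 and 12.6% in C118 38). These are bulk tissue values, in which fewer cells of a type and less RNA per cell cannot be told apart.

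Calcium that enters a neuron binds calmodulin, and calcium/calmodulin switches on these kinases. CaMKII is a large holoenzyme of alpha, beta, gamma and delta subunits that is abundant at excitatory synapses, keeps part of its activity by autophosphorylation, and is known for its role in long-term potentiation and hippocampal memory. Camk2n1 and Camk2n2 encode small proteins that bind the active kinase and inhibit it. The kinase kinases CaMKK1 and CaMKK2 phosphorylate and activate the CaMKI family, which acts in axons and dendrites, and CaMKIV, a largely nuclear kinase that phosphorylates CREB.

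The stretches of 250 bases upstream of the RefSeq start are shown for Camk2d and Camkk1, the members with called differences, and for Camk2n2, which varied together with Camk2d across libraries. They are from RefSeq (GRCm38.p6), run 5′ to 3′ on the strand of the gene, and capitals mark the cAMP response element half-site TGACG on either strand, a sequence bound by the CREB family. Camk2d lies at chr3:126596701-126596950 on the plus strand, Camkk1 at chr11:73018738-73018987 on the plus strand and Camk2n2 at chr16:20621279-20621528 on the minus strand. Starts differ between annotations, and by GENCODE M21 the Camk2d stretch lies inside the gene and that of Camk2n2 overlaps its first bases.
Camk2d: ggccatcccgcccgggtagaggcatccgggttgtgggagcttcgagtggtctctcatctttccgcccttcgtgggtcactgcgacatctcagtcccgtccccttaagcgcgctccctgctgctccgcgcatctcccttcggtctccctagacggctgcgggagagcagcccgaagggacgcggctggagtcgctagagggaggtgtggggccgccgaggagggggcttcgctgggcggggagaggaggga
Camkk1: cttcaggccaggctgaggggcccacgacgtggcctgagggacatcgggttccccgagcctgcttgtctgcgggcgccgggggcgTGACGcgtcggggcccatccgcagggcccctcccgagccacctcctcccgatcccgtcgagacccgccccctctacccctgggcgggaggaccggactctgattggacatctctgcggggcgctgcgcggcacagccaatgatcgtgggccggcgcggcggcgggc
Camk2n2: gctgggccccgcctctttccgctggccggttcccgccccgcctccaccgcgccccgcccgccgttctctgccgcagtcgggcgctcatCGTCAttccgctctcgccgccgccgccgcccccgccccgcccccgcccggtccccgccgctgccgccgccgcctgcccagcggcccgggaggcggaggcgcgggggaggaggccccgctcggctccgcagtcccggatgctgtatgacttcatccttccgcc
The half-site was found in the promoters of Camkk1 and Camk2n2 among the 6 members with an entry in that table (Camk2b, Camk2d, Camk2n2, Camkk1, Camkk2 and Camk1g), and in 17.8% of 32851 promoters of the same length. It starts 166 bases before the start of Camkk1 and 162 bases before that of Camk2n2. The full cAMP response element TGACGTCA was in 0 of the 6 and in 1.55% of all promoters. Neither the palindrome of the glucocorticoid response element, searched as GNACA and TGTNC with 3 bases between them (0.387% of all promoters), nor its half-site AGAACA (16.1%) was in any of the 6. Both strands were searched, and a full cAMP response element also counts as a half-site. The promoters shown are rich in G and C, at 68.4% for Camk2d, 74.4% for Camkk1 and 80% for Camk2n2, against a median of 52.4% over all promoters.

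Within the set, levels differed by more than a factor of 100 when set per kb of annotated exon sequence. Camk2a, the alpha subunit of the synaptic holoenzyme, averaged 702 CPM per kb over the 28 libraries. It was followed by the beta subunit gene Camk2b (180.3 CPM per kb), which carries the actin-binding function of the holoenzyme, and by the inhibitor gene Camk2n1 (173 CPM per kb). Camkk1 (87.8), Camk4 (56.2) and Camk2g (28) came next. At the low end were Camk2n2 (20.2), Camkk2 (16), Camk1g (8.93) and the delta subunit gene Camk2d (1.54 CPM per kb). Camk2d has a long exon union of 22493 bp against 5524 bp for its longest coding transcript, and it remained the lowest member, at 6.28 CPM per kb, when the transcript length was used. In genome position (GRCm38, GENCODE M21), Camk2d spans chromosome 3, 126596302 to 126846326, Camkk1 chromosome 11, 73019008 to 73042073, and Camk2n2 chromosome 16, 20619215 to 20621287. No member overlaps another gene's exons on its own strand. Camk4 shares 72 bp with 2310026I22Rik on the opposite strand.

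**Figure D1:**
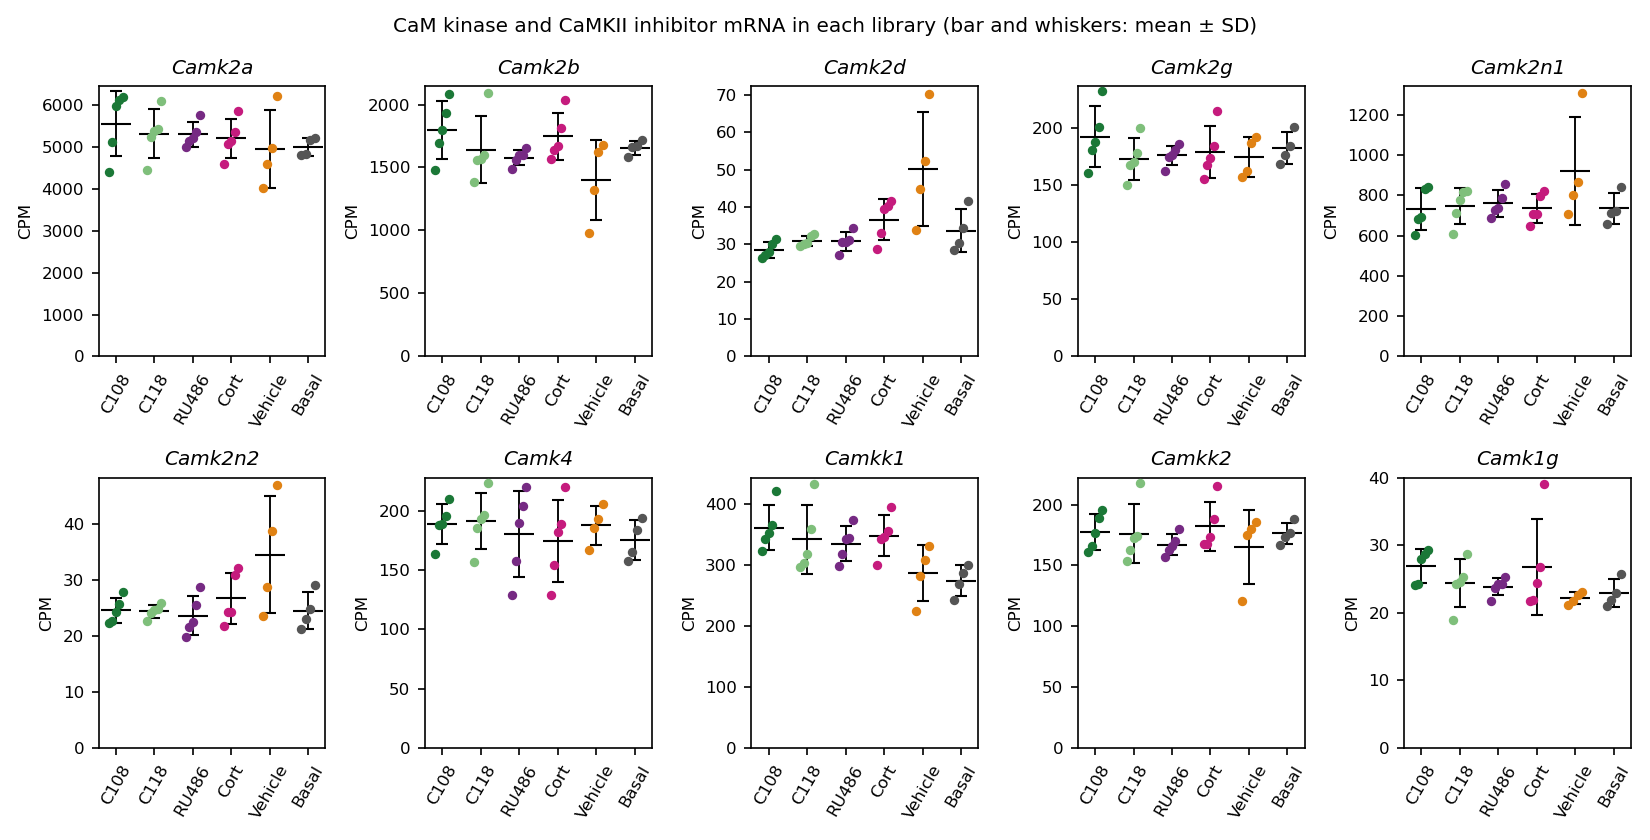
Level of each of the 10 members in every library, in CPM (vertical axes, each from 0), with groups from left to right in the order C108, C118, RU486, Cort, Vehicle and Basal; points are libraries, sorted by value within a group, and bars are the group mean and SD. Camk2d is highest in Vehicle 16 at 70.2 CPM, and the 5 C108 libraries sit between 26.3 and 31.5 CPM, below all 4 Vehicle libraries.

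Among the CaMKII subunit genes, Camk2d was the member called. It was called higher in Vehicle against Basal and lower in C108 against Vehicle, and it was called across the 6 groups. Both pairwise calls were lost without some single libraries, as given below. The gene encodes the delta subunit, known best from heart muscle and present at lower levels in brain. Its level was 31.5, 27.9, 27.1, 26.3 and 30 CPM in C108 libraries 8, 21, 26, 34 and 39, and 30.3, 30.2, 29.7, 32.2 and 32.7 CPM in C118 libraries 7, 13, 20, 33 and 38. RU486 libraries 6, 12, 19, 25 and 32 had 30.7, 30.8, 27.2, 34.3 and 31.2 CPM, and Cort libraries 4, 11, 17, 30 and 36 had 40.2, 41.5, 28.9, 39.6 and 33 CPM. Vehicle libraries 3, 16, 23 and 29 had 44.7, 70.2, 33.9 and 52.3 CPM, and Basal libraries 1, 9, 14 and 27 had 41.6, 34.3, 30.4 and 28.4 CPM. Vehicle thus held the 3 highest libraries of the series and also the widest spread, while C108 and C118 were tight and lay wholly below Vehicle. Vehicle and Basal overlapped, since Vehicle 23 was below Basal 1 and Basal 9. Behind these levels were 500 to 1369 counts per library.

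Vehicle averaged 50.3 ± 15.3 CPM and Basal 33.7 ± 5.8 CPM of Camk2d (SD, n = 4 each), a log2 fold change of 0.58 ± 0.15 (SE, 95% interval 0.28 to 0.88, edgeR adjusted p = 0.0188). That made 1 of 10 members called in Vehicle against Basal, where 4.11% of all tested genes were called. The call was lost without Vehicle 16, the highest library, where the log2 fold change was 0.38 (adjusted p = 0.114), and without Basal 14 (0.54, adjusted p = 0.0839) or Basal 27 (0.51, adjusted p = 0.0892). With only these groups in the fit the difference was as large (0.58) and the adjusted p was 0.202.

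C108 averaged 28.6 ± 2.14 CPM of Camk2d (SD, n = 5), and its fall against Vehicle was -0.82 ± 0.14 (SE, log2, 95% interval -1.10 to -0.53, edgeR adjusted p = 0.0327). It was the 1 member of 10 called in C108 against Vehicle, where 0.215% of all genes were called. C108 and Vehicle did not overlap, a pattern that 1.32% of genes showed in this direction. Without Vehicle 16 the log2 fold change was -0.61 and the call ended (adjusted p = 0.222), as it did without C108 8 (0.0537), C108 26 (0.0947), C108 34 (0.0978) or C108 39 (0.0928). DESeq2 called it (adjusted p = 0.000239) and limma-voom did not (0.0574).

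The other ligands also had lower Camk2d means than Vehicle, and none of these differences was called by edgeR. C118 stood at 31.0 ± 1.33 CPM and differed from Vehicle by -0.70 (log2, edgeR adjusted p = 0.0687), with no overlap between the groups, as for 0.735% of genes in this direction. RU486 stood at 30.8 ± 2.52 CPM, a difference of -0.71 (adjusted p = 0.0563), and Cort at 36.7 ± 5.44 CPM, a difference of -0.46 (adjusted p = 0.206, SD, n = 5 in each ligand group). Without Vehicle 23, the lowest Vehicle library, all 3 passed in edgeR. The adjusted p was then 0.000662 in C118, 0.00096 in RU486 and 0.0185 in Cort. Leaving that library out had to widen these differences. Over all fits that each left out a single library, the adjusted p reached 0.745 in C118, 0.517 in RU486 and 0.743 in Cort. The smallest differences were -0.49 in C118, -0.50 in RU486 and -0.25 in Cort. From high to low the group means ran Vehicle, Cort, Basal, C118, RU486 and C108. No neighbours in that order differed by the test, and each ligand's adjusted p against Basal was at least 0.323.

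Across all 6 groups Camk2d was the 1 member of 10 called (edgeR F test, adjusted p = 0.00272), against 4.73% of all genes, and it was called on leaving out each of the 28 libraries in turn (adjusted p from 0.000124 to 0.0203). The call ended without both Vehicle 16 and Vehicle 29 (0.103), without both Vehicle 3 and Vehicle 16 (0.0557), and with covariates for the thalamus and neocortex scores (0.053). Vehicle 3, Vehicle 16 and Vehicle 29 were the highest libraries in Camk2d, so leaving out either pair had to lower the Vehicle mean. Across the 5 conditioned groups alone Camk2d was again the 1 member called (adjusted p = 0.027), against 0.108% of all genes, and had the fifth smallest p-value of the 16735 tested. That call was lost without Vehicle 16 (adjusted p = 0.177), Vehicle 29 (0.0803) or Cort 4 (0.055).

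Markers of the thalamus, which borders the dorsal hippocampus, moved with Camk2d. Of 15 such markers 14 passed the filter and none of these was listed at 0. Their summed level was 370.5 to 424 CPM in C108, 384 to 527 in C118, 361 to 543 in RU486, 454 to 724 in Cort, 374 to 1254 in Vehicle and 415 to 517 in Basal. Vehicle 16 had 1254 CPM and Vehicle 3 had 759 CPM, whereas Vehicle 29, second in Camk2d, had 374 CPM. In C108 against Vehicle all 14 had negative log2 fold changes (median -1.57, 13 at an unadjusted p under 0.05, 0 called). In Vehicle against Basal 13 of 14 were positive (median 0.88, 7 at an unadjusted p under 0.05, 0 called). Other markers moved in the same comparisons. In C108 against Vehicle 1 of 8 CA3 markers was called lower, beside 0.215% of all genes called. In Vehicle against Basal 4 of 12 dentate gyrus and 2 of 6 excitatory neuron markers were called lower. So were 1 of 8 CA1 and 1 of 11 oligodendrocyte markers, and 1 of 10 astrocyte markers was called higher. Of all genes 4.11% were called in that comparison. All 11 choroid plexus markers were positive there (median 1.27, 0 called and 0 at an unadjusted p under 0.05) and negative in C108 against Vehicle (median -2.01, 0 called and 1 at that level). Their summed level was 41.8 to 286.4 CPM in C108, 46.5 to 968.8 in Vehicle and 34 to 290.6 in Basal, with none listed at 0. The part of these other markers in the Camk2d values was not tested. The 10 neocortex markers summed to 246 CPM in Vehicle 29 and 259 CPM in Vehicle 16, but to 141 CPM in Vehicle 3 and 146 CPM in Vehicle 23. Basal had 200.8 to 229.7 CPM of them, above all ligand groups. Those had 155.9 to 195.7 CPM in C108, 139.3 to 168.8 in C118, 140.7 to 165.6 in RU486 and 142.7 to 174.9 in Cort. With covariates for the thalamus and neocortex marker scores Camk2d was still called in Vehicle against Basal (log2 0.51, adjusted p = 0.00515). In C108 against Vehicle the same covariates left -0.46 (adjusted p = 0.362). Without both Vehicle 16 and Vehicle 29 the log2 fold changes were 0.22 in Vehicle against Basal (adjusted p = 0.538) and -0.46 in C108 against Vehicle (adjusted p = 0.835). These libraries were first and second in Camk2d, so leaving them out had to shrink both differences. The values without them therefore do not bear on tissue content.

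**Figure D2:**
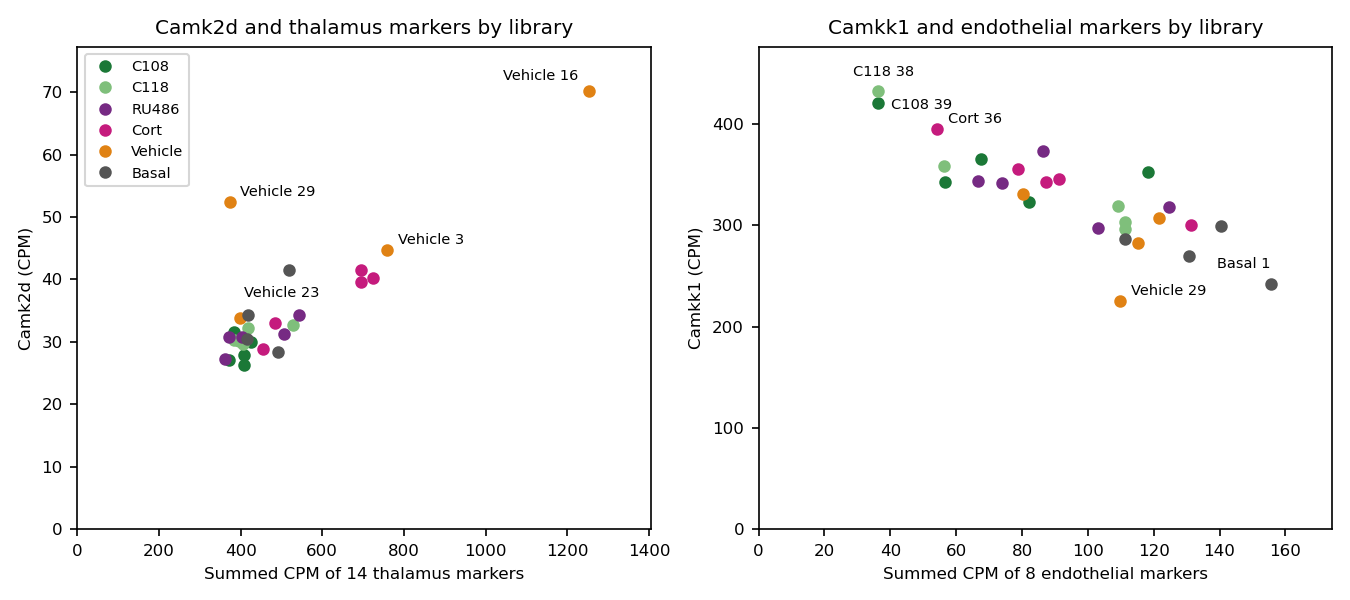
Each point is a library, coloured by group. Left, Camk2d against the summed level of 14 thalamus markers, with the 4 Vehicle libraries named; right, Camkk1 against the summed level of 8 endothelial markers, all in CPM. Vehicle 16 has the highest thalamus sum and Camk2d (1254 and 70.2 CPM) while Vehicle 29 has 374 CPM of thalamus markers and 52.3 CPM of Camk2d; C118 38 and C108 39 combine the lowest endothelial sums (36.2 and 36.4 CPM) with the highest Camkk1 (433 and 421 CPM).

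The major subunit genes were not called in any comparison. Camk2a ranged from 4392 to 6184 CPM in C108, 4442 to 6108 in C118, 5005 to 5775 in RU486, 4598 to 5858 in Cort, 4013 to 6211 in Vehicle and 4803 to 5226 in Basal. Its lowest and highest libraries were both Vehicle (29 and 23), and its adjusted p across the 6 groups was 0.83. Camk2g, the gamma subunit gene, averaged 192 ± 26.7 CPM in C108, 173 ± 18.3 in C118, 176 ± 8.59 in RU486, 179 ± 22.6 in Cort (SD, n = 5 each), 174 ± 17.3 in Vehicle and 182 ± 13.7 in Basal (SD, n = 4 each), with adjusted p = 0.791 across the 6 groups.

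Camk2b had its lowest mean in Vehicle. It averaged 1799 ± 231 CPM in C108, 1641 ± 265 in C118, 1579 ± 62.4 in RU486, 1746 ± 186 in Cort (SD, n = 5 each), 1401 ± 319.6 in Vehicle and 1658 ± 55.1 in Basal (SD, n = 4 each). C108 against Vehicle gave 0.36 ± 0.12 (SE, log2, 95% interval 0.11 to 0.61, edgeR adjusted p = 0.15) and Cort against Vehicle 0.32 ± 0.12 (adjusted p = 0.309), so neither passed. Single libraries held the extremes, with 981 CPM in Vehicle 29 and with 2091, 2086 and 2036 CPM in C118 38, C108 39 and Cort 36. The last 3 are the libraries with the lowest endothelial, astrocyte and microglia sums, whose part in the Camk2b values was not tested.

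By length-corrected level Camk2a led the subunit mixture in every group. Camk2a made up 76.3 ± 4.64% of CaMKII subunit mRNA in C108, 77.2 ± 4.42% in C118, 77.8 ± 1.22% in RU486, 75.9 ± 2.26% in Cort (SD, n = 5 each), 78.4 ± 1.51% in Vehicle and 76.0 ± 0.974% in Basal (SD, n = 4 each). Camk2b took 18 to 20.9% as group means and Camk2g 2.95 to 3.33%. Camk2d was a trace component, with means of 0.131% in C108, 0.15% in C118, 0.151% in RU486, 0.178% in Cort, 0.278% in Vehicle and 0.17% in Basal. The ratio of Camk2a to Camk2b was 3.96 over all libraries (SD 0.605, n = 28) and lowest in C108 39 (2.57), C118 38 (2.6) and Cort 36 (3.04). These shares depend on the length used: per kb of longest coding transcript Camk2a made up 69.4% over all libraries, against 76.9% per kb of exon union. By transcript length the Camk2b share was 27% instead of 19.8%, and the Camk2d share 0.423% instead of 0.173%. The ratio of Camk2a to Camk2b was then 2.62 instead of 3.96.

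**Figure D3:**
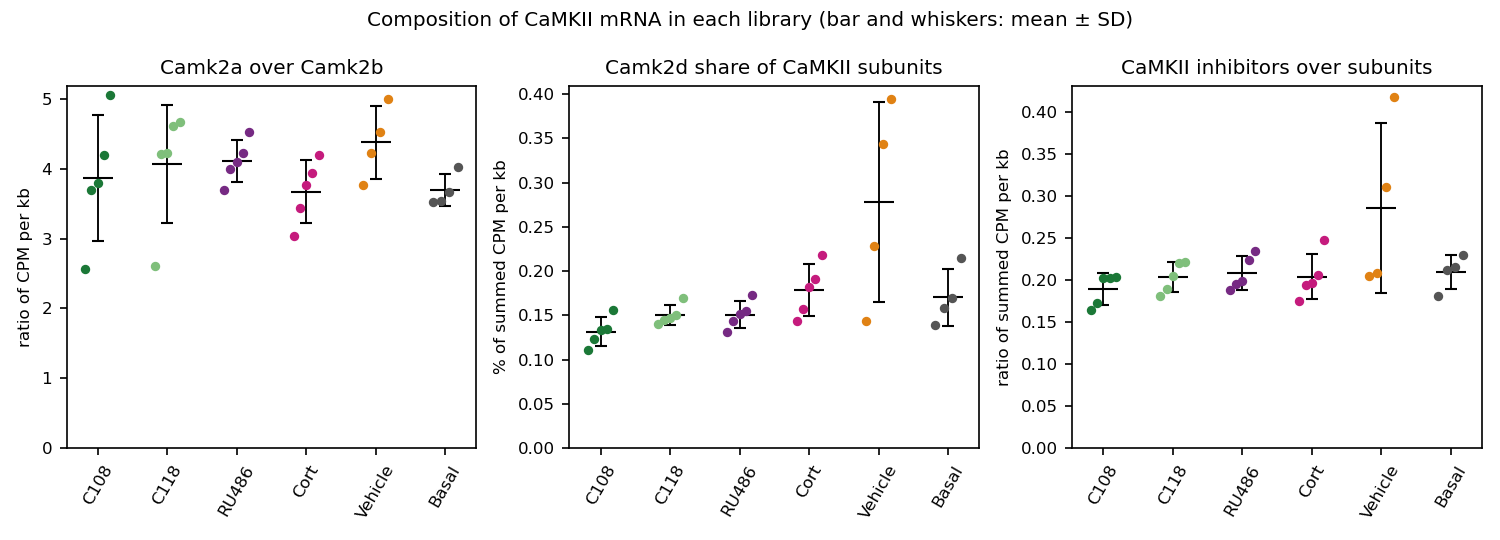
Ratio of Camk2a to Camk2b, share of Camk2d among subunits in percent, and ratio of inhibitor to subunit genes in each library (vertical axes, each from 0), from levels per kb of exon union, with groups from left to right as C108, C118, RU486, Cort, Vehicle and Basal; points are libraries and bars the group mean and SD. The ratio of inhibitor to subunit mRNA averages 0.285 in Vehicle, where Vehicle 16 reaches 0.418, and 0.189 to 0.21 in the other groups.

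Both inhibitor genes had their highest mean in Vehicle, and neither was called. Camk2n2, which encodes the beta isoform of the inhibitor, had 27.8, 22.3, 25.7, 22.7 and 24.3 CPM in C108 libraries 8, 21, 26, 34 and 39, against 28.7, 46.9, 23.5 and 38.7 CPM in Vehicle libraries 3, 16, 23 and 29. Basal libraries 1, 9, 14 and 27 had 24.8, 23, 29 and 21.2 CPM. Vehicle 16 and Vehicle 29 were the highest of the 28, and Vehicle overlapped C108 through Vehicle 23 and Basal through Vehicle 3 and Vehicle 23. C118 ranged from 22.7 to 25.8 CPM, RU486 from 19.8 to 28.7 and Cort from 21.8 to 32.2. Vehicle against Basal gave 0.49 ± 0.15 (SE, log2, 95% interval 0.18 to 0.81, edgeR adjusted p = 0.064). DESeq2 called it (adjusted p = 0.0355) and limma-voom did not. Against Vehicle the differences were -0.49 in C108 (adjusted p = 0.113), -0.50 in C118 (0.261), -0.55 in RU486 (0.22) and -0.37 in Cort (0.317). Without Vehicle 23, the lowest Vehicle library for this gene, edgeR called Camk2n2 in Vehicle against Basal (0.00982), C108 (0.00955), C118 (0.0128) and RU486 (0.00841) against Vehicle. Over all fits that left out 1 library, the adjusted p reached 0.284 in Vehicle against Basal. Against Vehicle it reached 0.424 in C108, 0.963 in C118 and 0.78 in RU486. The smallest differences were 0.31 in Vehicle against Basal and -0.30, -0.31 and -0.36 in these ligands.

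Camk2n1, the alpha isoform and the more abundant inhibitor mRNA, stood at 706, 1309, 869 and 800.5 CPM in Vehicle libraries 3, 16, 23 and 29, against 723, 844, 715 and 660.2 CPM in Basal libraries 1, 9, 14 and 27. Vehicle 16 alone exceeded every other library, the next being Vehicle 23. The difference was 0.32 ± 0.14 (SE, log2, edgeR adjusted p = 0.199). Ligand group means were 731 in C108, 748 in C118, 760.4 in RU486 and 736 CPM in Cort, between 0.28 and 0.33 below Vehicle on the log2 scale, with adjusted p of at least 0.199. The inhibitor genes together, per kb, came to 0.189 ± 0.019 of the subunit genes in C108 (SD, n = 5), 0.285 ± 0.101 in Vehicle and 0.21 ± 0.0206 in Basal (SD, n = 4 each). Vehicle libraries 3, 16, 23 and 29 had ratios of 0.208, 0.418, 0.205 and 0.31, so that Vehicle 16 and Vehicle 29 carried the higher Vehicle mean. These ratios are per kb of exon union. Per kb of longest coding transcript they averaged 0.113 in C108, 0.172 in Vehicle and 0.125 in Basal.

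In the kinase kinase branch, Camkk1 rose in C108 against Basal. The gene encodes CaMKK1, an activator of CaMKI and CaMKIV. It had 353, 323, 343, 366 and 421 CPM in C108 libraries 8, 21, 26, 34 and 39, against 242, 286, 269 and 299.7 CPM in Basal libraries 1, 9, 14 and 27. All 5 C108 libraries lay above all 4 Basal libraries, as 4.41% of genes did in this comparison. The log2 fold change was 0.40 ± 0.11 (SE, 95% interval 0.17 to 0.62, edgeR adjusted p = 0.0309). Camkk1 was the 1 member of 10 called in C108 against Basal, where 6.04% of all genes were called. DESeq2 (0.0117) and limma-voom (0.0289) called it too. Without Basal 1 the log2 fold change was 0.34 (adjusted p = 0.146) and the call ended, as it did without Basal 14 (0.096), C108 34 (0.0502) or C108 39 (0.092), and with the sample number as a covariate, added after seeing the data (log2 0.30, adjusted p = 0.0974).

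The other ligands had Camkk1 means of 335 to 348 CPM, and none differed from Basal by the edgeR test. C118 libraries 7, 13, 20, 33 and 38 had 319, 303, 297, 358 and 433 CPM, RU486 libraries 6, 12, 19, 25 and 32 had 318, 298, 374, 343 and 342 CPM, and Cort libraries 4, 11, 17, 30 and 36 had 301, 345, 343, 355 and 395 CPM. Vehicle libraries 3, 16, 23 and 29 had 307, 282, 331 and 225 CPM. Against Basal the differences were 0.32 in C118 (log2, edgeR adjusted p = 0.101), 0.29 in RU486 (0.119), 0.34 in Cort (0.0612) and 0.06 in Vehicle (0.84). Cort did not overlap Basal, as for 4.68% of genes in that direction, and DESeq2 called Cort against Basal (0.0336), as edgeR did without Cort 4 (0.0332). Against Vehicle the differences were 0.33 in C108 (0.141), 0.26 in C118 (0.556), 0.23 in RU486 (0.612) and 0.28 in Cort (0.321). From high to low the means ran C108 (361 CPM), Cort (348), C118 (342), RU486 (335), Vehicle (286) and Basal (274), and no neighbours in that order differed by the test.

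In C108 against Basal, endothelial markers moved opposite to Camkk1. All 8 were tested and none was listed at 0, and their sums were 36.4 to 118.4 CPM in C108, 36.2 to 111 in C118, 66.6 to 125 in RU486, 54.3 to 131 in Cort, 80.3 to 122 in Vehicle and 111 to 156 in Basal. In C108 against Basal all 8 had negative log2 fold changes (median -0.85) and 3 were called lower, beside 6.04% of all genes called. Other markers moved there too. All 11 oligodendrocyte markers were negative (1 called lower), as were 9 of 10 neocortex markers (1 called lower). Of 10 astrocyte markers 8 were negative and 1 was called higher. In CA1 and microglia 1 of 8 markers each was called lower, and 1 of 5 CA2 markers higher. Dentate gyrus and excitatory neuron lists had 1 call in each direction. The highest Camkk1 libraries, C118 38, C108 39 and Cort 36, had the lowest endothelial sums, and Basal 1, second lowest in Camkk1, had the highest. Vehicle 29, the lowest in Camkk1 (225 CPM), had an endothelial sum of 109.9 CPM, below the Basal range. With the endothelial score as a covariate, an alternative chosen after seeing the data, the log2 fold change of Camkk1 in C108 against Basal was 0.13 (adjusted p = 0.569). With the thalamus and neocortex scores it was 0.30 (adjusted p = 0.213). Without Cort 36, C108 39 and C118 38 the call held (log2 0.34, adjusted p = 0.0389). Levels of endothelial and other markers differed between the same groups, and their part in the Camkk1 values was not tested.

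Camkk2, Camk4 and Camk1g were not called in any comparison. Camkk2, which encodes CaMKK2, also an activator of AMP-activated protein kinase, had group means of 178 CPM in C108, 176 in C118, 167 in RU486, 182 in Cort, 165 in Vehicle and 176 in Basal. Camkk1 stood at 2.04 ± 0.122 times the CPM of Camkk2 in C108, 1.94 ± 0.0913 in C118, 2.01 ± 0.198 in RU486, 1.91 ± 0.135 in Cort (SD, n = 5 each), 1.74 ± 0.126 in Vehicle and 1.56 ± 0.205 in Basal (SD, n = 4 each), a ratio of read counts that also carries the difference in gene length. Camk4 had means from 175 to 191 CPM, with its lowest library at 129 CPM in Cort 4 and its highest at 223 CPM in C118 38. Camk1g had 27.9, 24.3, 29.3, 24.2 and 28.8 CPM in C108 libraries 8, 21, 26, 34 and 39, against 21.2, 21.7, 23.1 and 22.6 CPM in Vehicle libraries 3, 16, 23 and 29. These groups did not overlap, as for 1.81% of genes in that direction, and the difference of 0.28 (log2) did not pass (edgeR adjusted p = 0.256).

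**Figure D4:**
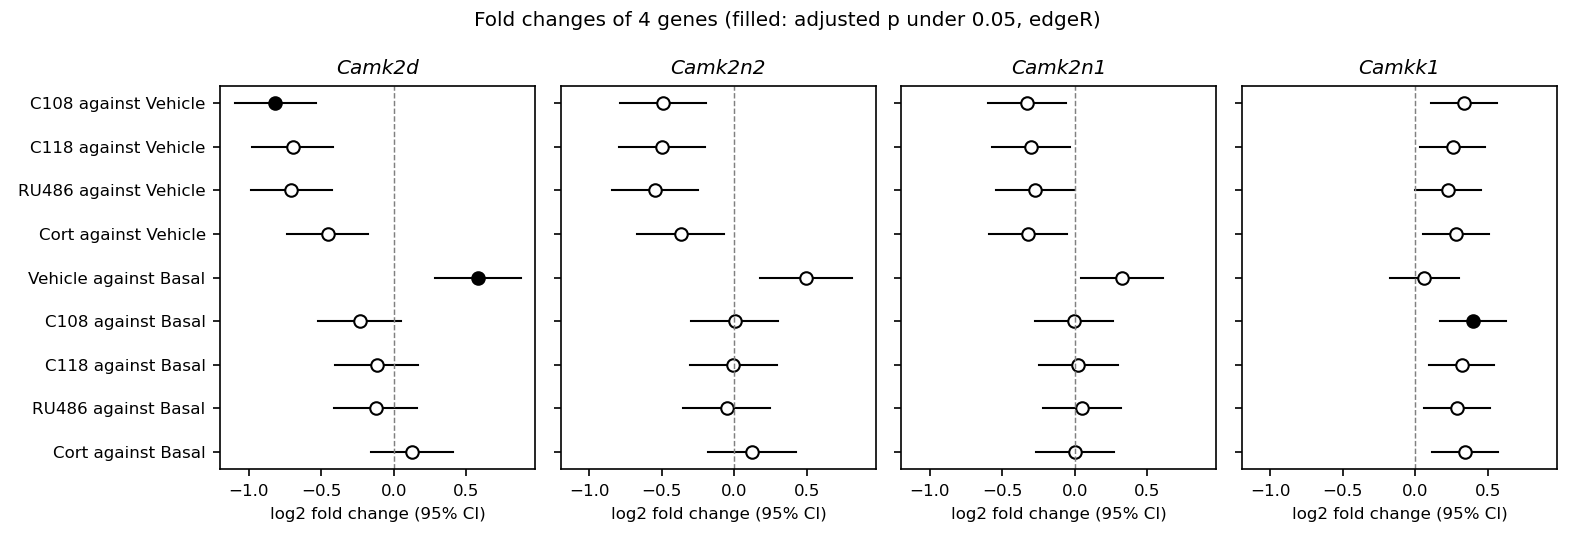
Log2 fold changes of Camk2d, Camk2n2, Camk2n1 and Camkk1 with 95% intervals (edgeR, horizontal axes) in each ligand against Vehicle, Vehicle against Basal and each ligand against Basal, from top to bottom; filled points passed at an adjusted p under 0.05. Camk2d in Vehicle against Basal (0.58), Camk2d in C108 against Vehicle (-0.82) and Camkk1 in C108 against Basal (0.40) are the filled ones.

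In the remaining comparisons with Vehicle and Basal, edgeR called 0 of 10 members. Cort against Vehicle had 6 members at an unadjusted p under 0.05, as had 11.6% of all genes (0.00598% called), with 0 members called by DESeq2 and 0 by limma-voom. RU486 against Vehicle had 3 members at that level, beside 8.16% of all genes, and C118 against Vehicle had 4, beside 8.01%. By edgeR no gene of the 16735 was called in either (0%). DESeq2 called Camk2d in both, but the share of all genes that it called is not given here. Of the members limma-voom called 0. Against Basal, each of the other 3 ligands had Camkk1 as the 1 member at an unadjusted p under 0.05. That level was met by 18.9% of all genes in C118 (3.87% called), 22% in RU486 (5.45% called) and 19.5% in Cort (6.27% called). Of the members, 0 were called by limma-voom, 1 by DESeq2 in Cort and 0 in the other 2. The median log2 fold change of the members was 0.02 in Vehicle against Basal and 0.12 in C108 against Vehicle, and the median of all tested genes lay within 0.0111 of 0 in every comparison. The ligand comparisons share their Vehicle or Basal libraries, so their values are not independent of each other.

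Between ligands, in 6 direct comparisons, 0 of 10 members were called by edgeR, DESeq2 or limma-voom. The background was 0.0538% of all genes called in Cort against RU486 and 0% in the other 5. The widest difference was Camk2d in Cort against C108, with 36.7 ± 5.44 and 28.6 ± 2.14 CPM (SD, n = 5 each), a log2 fold change of 0.36 with a 95% interval of 0.09 to 0.63 (edgeR unadjusted p = 0.0107, adjusted p = 0.83), and it was the 1 member at an unadjusted p under 0.05 in these 6, beside 4.88% of all genes in that comparison. C108 and C118, the code-named ligands, differed in Camk2d by -0.12 (95% interval -0.39 to 0.15), in Camkk1 by 0.08 (-0.13 to 0.29), in Camk2b by 0.13 (-0.10 to 0.37) and in Camk2g by 0.15 (-0.03 to 0.34). The sources used here do not give their doses, so these values are not a comparison at a known matched dose.

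Other genes of the pathway were read from 6 lists covering further CaM kinase genes, calmodulin and its buffers, CaMKII partners and phosphatases, calcineurin, downstream targets of CaMKK and CaMKIV, and calcium channels, stores and pumps. Of their 91 tested genes, edgeR called 0 against Vehicle. In C108 against Vehicle 34 (37.4%) had an unadjusted p under 0.05, beside 17.4% of all genes. The counts were 14 in C118 (15.4%, beside 8.01%), 9 in RU486 (9.89%, beside 8.16%) and 17 in Cort (18.7%, beside 11.6%). Between ligands edgeR called 0, with 0 to 11 at that level. For Cort against C108 the count was 2 (2.2%), beside 4.88% of all genes. For the other ligand pairs the share of all genes at that level is not given here, so their counts are not read as a result. These lists were not tested with other tools. In Vehicle against Basal 2 of the 91 were called (2.2%, beside 4.11% of all genes). There, 1 of 9 calcineurin genes rose, Rcan2, an inhibitor of calcineurin, with 189 ± 28.4 CPM in Vehicle and 135 ± 13 CPM in Basal (SD, n = 4 each, log2 0.48, edgeR adjusted p = 0.00586). Of 22 calcium entry, release and export genes 1 fell, the T-type channel gene Cacna1i, with 48.1 ± 6.13 and 58.9 ± 2.9 CPM (log2 -0.29, adjusted p = 0.0454). The CaMKII partners and phosphatases had a median of -0.18, with 16 of 21 negative and 0 called.

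Against Basal, 4 of the 91 were called in C108 (4.4%, beside 6.04% of all genes), 3 in C118 (3.3%, beside 3.87%), 7 in RU486 (7.69%, beside 5.45%) and 3 in Cort (3.3%, beside 6.27%), shares near the background. Dapk1, a calmodulin-regulated kinase tied to cell death, was higher than in Basal in every ligand group. It was not called in Vehicle against Basal or in any ligand against Vehicle. Conditioning and ligand cannot be told apart in comparisons with Basal. Dapk1 averaged 248 ± 22 CPM in C108, 231 ± 23.4 in C118, 223 ± 8.86 in RU486 and 265 ± 18.7 in Cort (SD, n = 5 each), against 180.4 ± 10 CPM in Basal (SD, n = 4). The adjusted p-values were 0.00373 in C108, 0.0242 in C118, 0.0479 in RU486 and 0.00022 in Cort. Rcan1, a feedback inhibitor of calcineurin, rose in C108 (0.29, adjusted p = 0.0479) and RU486 (0.29, 0.049). In C108 the calcineurin catalytic subunit gene Ppp3cc (0.27, 0.0357) and Hdac4 (0.24, 0.033), a deacetylase exported from the nucleus after CaM kinase phosphorylation, rose as well. Akap5, which anchors calcineurin and protein kinase A at synapses, fell in RU486 (-0.55, 0.00832) and Cort (-0.48, 0.0141). Cacna1g, another T-type channel gene, fell in C118 (-0.59, 0.0377) and RU486 (-0.61, 0.0273). Cacna1i fell in C118 (-0.28, 0.0413), RU486 (-0.34, 0.0126) and Cort (-0.35, 0.00555). RU486 also had lower Ryr2, a calcium release channel of internal stores (-0.51, 0.031), and higher Ppp2ca, a phosphatase subunit (0.26, 0.0294).

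Over the 28 libraries and 14584 genes, the profiles most like Camk2d by Pearson correlation of log2 CPM were Tmem132c (0.869), Rora, a nuclear receptor expressed in thalamus (0.865), and the potassium channel gene Kcnc2 (0.851). Within the set Camk2d was closest to Camk2n2 (0.775). Those most like Camkk1 were Nmt1, an N-myristoyltransferase (0.936), Sh3bp5 (0.904) and the histone demethylase gene Kdm4b (0.902). Camk2b was nearest to Slc8a2, a sodium/calcium exchanger (0.955), Napa (0.953) and Coro7 (0.942), and within the set to Camkk2 (0.872). Camk2a was nearest to Ddn, a postsynaptic protein gene (0.838), Fbxl16 (0.831) and Cabp7 (0.824). These correlations are descriptions, since the libraries share groups and the marker differences given above.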

How the data were processed

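Dorsal hippocampus RNA from 28 libraries was read as stranded paired libraries on a DNBseq instrument, per the labels. The deposited values are raw counts per Ensembl gene. Per the submitters' processing notes the tools were FastQC, MultiQC and HTSeq 0.6.1 with genome build mm10. The sources used here name neither the aligner nor the strand setting of the counting. The 5 rows that name no gene held 12.6 to 19.7% of reads and were left out. Genes were filtered with filterByExpr (minimum count 10, minimum total 15) and fitted with edgeR 4.0.16 (TMM, robust quasi-likelihood, R 4.3.3) over all 28 libraries and 6 groups, with 22 residual degrees of freedom and a common biological coefficient of variation of 0.133. There were 15 comparisons of group pairs and 2 tests across groups, two-sided. SE was taken as log2 fold change over root F. The scripts were tested on simulated counts. Alternatives used DESeq2 1.42.0 and limma-voom (limma 3.58.1), other filters and normalization, covariates, and left-out libraries. Named pathway genes were up to 3 called genes per list and comparison with the smallest p. The member rule uses no measured value, but the members and lists were proposed with earlier results of these data known. No pair of libraries in a group was a copy (chi-square of their counts at least 5.55 per degree of freedom). At these depths the spread between libraries, more than counting, limits precision. The sequences are from RefSeq, and 310 genes had no symbol.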

Additional observations from a re-analysis of the deposited data

Results flagged for a closer look

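Camkk2 had 120.4 CPM in Vehicle 29, while the other 3 Vehicle libraries had 175 to 186 CPM. The gap to the nearest library was 0.836 of the range of the group, past Dixon's 95% value for 4 libraries. It was the 1 flagged case among 60 combinations of member and group, where chance flags about 1 in 20. Vehicle 29 was also the lowest of the 28 libraries for Camk2a (4013 CPM), Camk2b (981 CPM) and Camkk1 (225 CPM), and for the summed markers of dentate gyrus (655 CPM) and of excitatory neurons (1642 CPM), whose part in these values was not tested.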

How the results depend on the processing

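Of 170 pairs of member and comparison, 5 were called in the reported fit and 19 in at least 1 of the 12 alternatives or of the fits that left out 1 library, and no called value changed sign. The counts of called members moved as follows. Vehicle against Basal (1 reported) gave 2 with DESeq2, 2 with the thalamus and neocortex scores, 2 with the endothelial score, and 0 with only the groups compared, without Vehicle 3 and 16 or without Vehicle 16 and 29. C108 against Vehicle (1) gave 0 with limma-voom, only the groups compared, either set of scores, either pair of Vehicle libraries left out, or without Cort 36, C108 39 and C118 38. C108 against Basal (1) gave 0 with either set of scores. RU486 against Vehicle (0) gave 1 with the stricter filter and with DESeq2, and C118 against Vehicle (0) gave 1 with DESeq2. Cort against Basal (0) gave 1 with DESeq2 and with only the groups compared. RU486 against Basal (0) gave 1 with only the groups compared and without Cort 36, C108 39 and C118 38. Across the 6 groups (1) it was 3 with DESeq2 and 0 with the thalamus and neocortex scores or either pair of Vehicle libraries left out. Across the 5 conditioned groups (1) it was 0 with limma-voom, either set of scores, either Vehicle pair or the 3 libraries left out. With the sample number as a covariate, Vehicle against Basal gave 2, RU486 against Vehicle 1 and C108 against Basal 0. This covariate, the endothelial score and the removal of Cort 36, C108 39 and C118 38 were chosen after seeing the data. Why these counts moved was not tested.

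Leaving out 1 library at a time gave 0 to 2 called members in Vehicle against Basal, RU486 against Vehicle and C118 against Vehicle, 0 to 1 in Cort against Vehicle, Cort against Basal and C108 against Basal, and 0 to 4 in C108 against Vehicle. It gave 1 to 3 across the 6 groups, 0 to 2 across the 5 conditioned groups, and 0 in RU486 against Basal, C118 against Basal and the 6 ligand pairs. The highest counts above the reported ones came without Vehicle 23 or Vehicle 3, and for Cort against Basal without Cort 4. In C108 against Vehicle without Vehicle 23 the 4 were Camk2b, Camk2d, Camk2n2 and Camkk1. The share of all genes called in each of these fits is not given here. These counts are therefore not read as a result about the members. With 4 or 5 libraries a group, a member's difference of about 0.3 on the log2 scale often fell short of the threshold, and such a miss does not show equal levels. No paired analysis was possible because each title has its own sample number and no number occurs in more than 1 group.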

Other observations

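The libraries Cort 36, C108 39 and C118 38, from 3 treatment groups, resembled each other in the members. They had the highest Camk2b (2036, 2086 and 2091 CPM), Camkk1 (395, 421 and 433 CPM) and Camkk2 (215, 195 and 217 CPM) of the 28. Their summed endothelial markers were 54.3, 36.4 and 36.2 CPM, their astrocyte markers 3516, 3263 and 3072 CPM, and their microglia markers 284, 295 and 285 CPM, the lowest of the 28 in each list. Their ratio of Camk2a to Camk2b was 3.04, 2.57 and 2.6.

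Among the remaining members, the profiles most like Camk2n1 belonged to Arpp19, a phosphatase regulator (0.887), Nrsn1 (0.808) and Stard10 (0.776). For Camk2n2 they belonged to the histamine receptor gene Hrh3 (0.795), Igsf21 (0.786) and Camk2d. Camk2g was closest to the kinase gene Pak1 (0.857), Camkk2 to Rph3a, a synaptic vesicle protein gene (0.896), and Camk1g to the tyrosine kinase gene Fyn (0.81). Each value is a Pearson correlation of log2 CPM over the 28 libraries, given as a description.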
